A study of Mus musculus with 10 samples.

Results

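The nicotinic acetylcholine receptor subunits were followed as 9 genes, Chrna1, Chrna3, Chrna4, Chrna5, Chrna6, Chrna7, Chrnb2, Chrnb3 and Chrnb4, out of 19938 genes measured in the hippocampus. They were taken by gene symbol, with the row of highest mean signal for each gene, and all 9 were found with 1 row each. None of them lies in a segment that is present in 3 copies in the Ts65Dn mouse. The samples were 5 male Ts65Dn mice and 5 male control littermates. Ts65Dn mice model Down syndrome by an additional minichromosome, which adds a piece of Mmu16 and also a piece of Mmu17 with no homology to human chromosome 21. All 10 mice were 16 weeks old and of the F1 hybrid B6C3B background, and the left and right hippocampi of a mouse were joined into 1 RNA and put on 1 Affymetrix Mouse Gene 1.0 ST array. Values below are log2 signals. A difference is the mean of Ts65Dn minus the mean of controls on that scale, where 1 unit is a doubling of signal, given with its standard error (SE).

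Nicotinic receptors are ion channels of several subunits that open when acetylcholine binds. In the hippocampus the receptors known best are the alpha7 receptor, made of Chrna7 alone and frequent on interneurons, and the alpha4 beta2 receptor, made of Chrna4 and Chrnb2. Chrna5 is an accessory subunit, Chrna3 and Chrnb4 pair in autonomic ganglia, in the medial habenula and in the pineal gland, Chrna6 and Chrnb3 are known from dopamine neurons and the retina, and Chrna1 is the alpha subunit of the receptor of the neuromuscular junction.

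The 9 genes were chosen by their family and with their differences between Ts65Dn and control in these mice in view, together with the values of Chrna3, Chrnb4 and Chrna1, so the differences between genotypes are a description, from which nothing is read. None of the 9 passed an adjusted p of 0.05 in limma (0.316% of the 23410 rows tested did). At an unadjusted p under 0.05, Chrna1 was higher (1.73% of rows were) and Chrna3 was lower (1.43% of rows were) in Ts65Dn. Chrna1 was the only member whose 2 genotypes did not overlap, against 0.884% of all rows. Without control replicate 1 no other member joined it (1.4% of rows had no overlap then), and leaving out a mouse cannot undo a separation. A rank method over the 25 pairs of a Ts65Dn and a control array called 3 members (5.36% of rows), Chrna1 and Chrna5 as higher (2.89%) and Chrna3 as lower (2.47%). The median difference of the 9 members was 0.02, beside -0.00 for all rows, and 6 of the 9 differences were above 0. A fold change near background is understated by the summary of the probes, and in a whole tissue fewer cells of a type and less RNA per cell cannot be told apart.

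**Figure D1:**
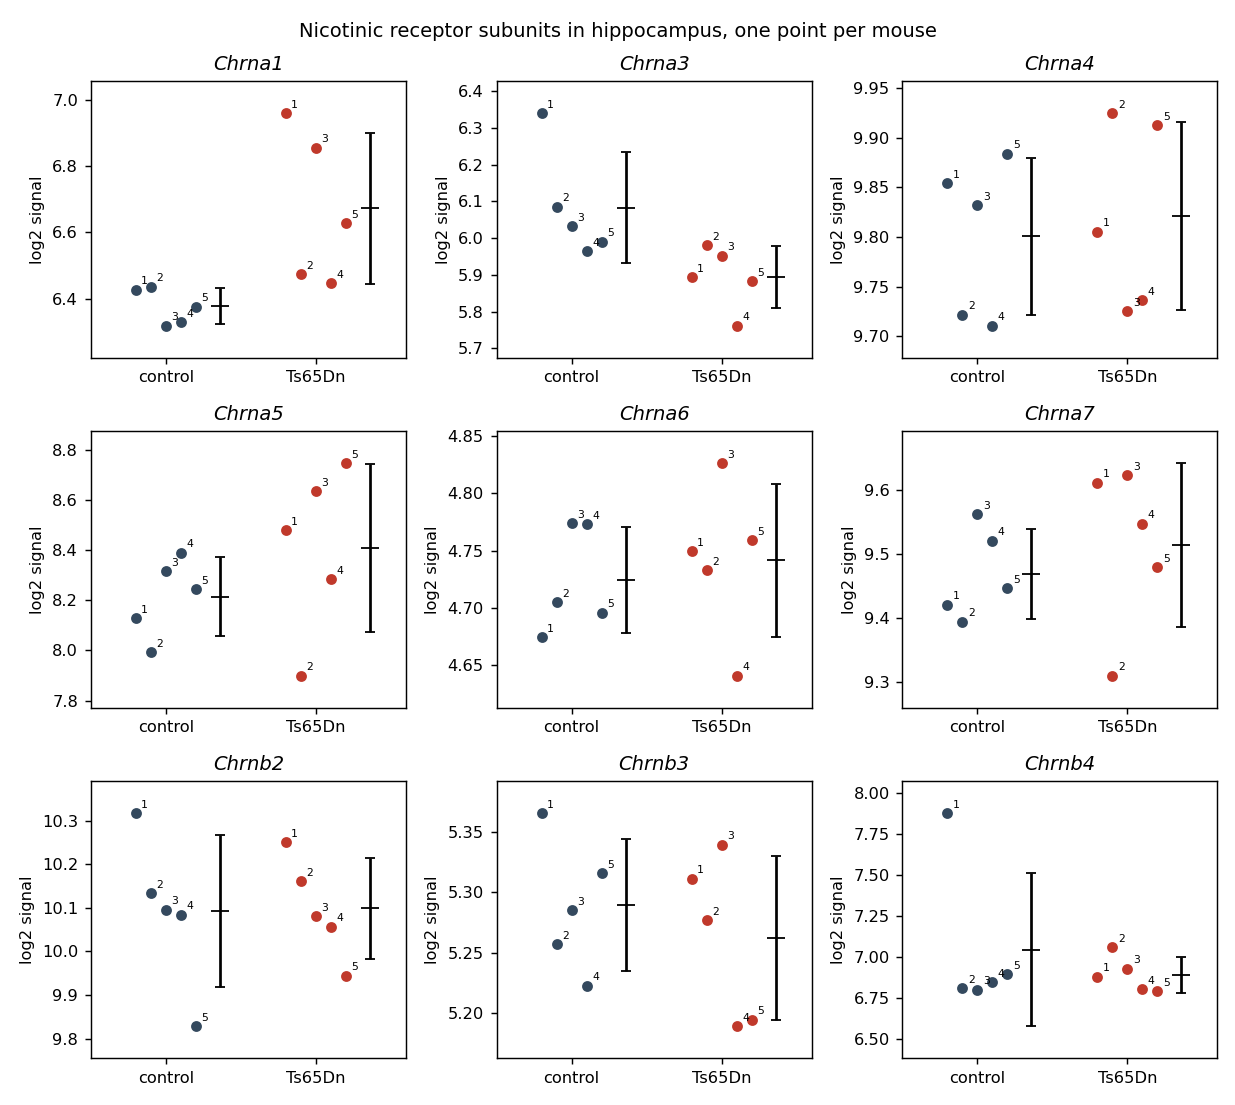
Log2 signal of each of the 9 subunits, one point per mouse, with control mice on the left and Ts65Dn mice on the right of each panel, the replicate number beside the point, and the mean ± SD of 5 mice as a bar. The axes differ between panels. Chrna1 is the panel without overlap, with controls from 6.32 to 6.44 and Ts65Dn mice from 6.45 to 6.96, and in the Chrnb4 panel control replicate 1 stands at 7.88, away from the other 9 mice.

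Control replicate 1 stood apart in Chrnb4, and results that rest on it are given with and without that mouse. Array medians lay between 7.38 and 7.41 and no arrays were identical. Choroid plexus markers differed widely between mice of both genotypes, with a list mean from 6.96 to 9.83 in Ts65Dn and from 7.01 to 9.61 in controls. Among the 12 measured markers of hippocampal neurons, of which the dentate gene Prox1 and the CA1 gene Wfs1 are examples, the list mean was between 9.65 and 9.96 in all 10 mice.

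Chrna3, Chrna5 and Chrnb4 are neighbours on mouse chromosome 9 (GRCm38), Chrna5 at chr9:54980827-55011420, Chrna3 at chr9:55010117-55026562 and Chrnb4 at chr9:55028154-55048953. The Chrna5 and Chrna3 genes share 1304 bases at their ends, and 1591 bases separate Chrna3 from Chrnb4. Probe positions were not used, so it was not checked which probes fall in the shared stretch. The promoter windows of Chrna3 and Chrnb4 are shown because the question was whether both genes moved together, and that of Chrna1 because it is the muscle subunit. Each is the 250 bases before a transcript start in RefSeq on GRCm38.p6, on the minus strand of the chromosome, read 5′ to 3′ along the gene. Capitals mark matches on either strand to GGGCGG (the GC box, read as CCGCCC on the other strand), TAATCC (a motif of the photoreceptor and pineal factor Crx) or CAGCTG (an E-box that reads the same on both strands and is bound by myogenic and neurogenic bHLH factors).
Chrna3, chr9:55026563-55026812: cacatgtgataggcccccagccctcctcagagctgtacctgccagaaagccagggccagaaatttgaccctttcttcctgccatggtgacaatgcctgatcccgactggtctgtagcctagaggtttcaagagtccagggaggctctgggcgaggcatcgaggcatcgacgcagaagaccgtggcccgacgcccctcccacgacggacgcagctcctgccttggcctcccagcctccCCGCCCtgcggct
Chrnb4, chr9:55048545-55048794: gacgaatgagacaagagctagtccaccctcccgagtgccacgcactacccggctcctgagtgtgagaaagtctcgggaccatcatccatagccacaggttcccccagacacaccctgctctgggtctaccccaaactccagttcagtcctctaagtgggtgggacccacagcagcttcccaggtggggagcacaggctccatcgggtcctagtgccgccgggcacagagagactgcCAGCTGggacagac
Chrna1, chr2:73580339-73580588: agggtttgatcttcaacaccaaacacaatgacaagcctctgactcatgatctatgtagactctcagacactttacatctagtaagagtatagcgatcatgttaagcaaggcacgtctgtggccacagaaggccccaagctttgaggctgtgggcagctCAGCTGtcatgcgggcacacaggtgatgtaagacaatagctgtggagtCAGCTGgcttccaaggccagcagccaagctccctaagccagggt
The Chrna3 window held 1 GGGCGG, the Chrnb4 window 1 CAGCTG and the Chrna1 window 2 CAGCTG, and none of the 3 windows held TAATCC. The Chrnb4 window lies inside the annotated span of the gene, upstream of an inner start. Over all 32851 windows of this length, GGGCGG was present in 32.7%, CAGCTG in 13.0% and TAATCC in 6.25%, so each motif that was found is a common one. Chrna3 and Chrnb4 shared none of these 3 motifs in the windows shown. Windows were found for 7 of the 9 members, and those of Chrna6 and Chrnb3 were not.

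Chrnb4, the beta subunit that completes the ganglionic and habenular receptor with Chrna3, was flat in 9 mice and high in 1. Its log2 signals were 6.88, 7.06, 6.93, 6.80 and 6.79 in Ts65Dn replicates 1 to 5, and 7.88, 6.81, 6.80, 6.85 and 6.90 in control replicates 1 to 5. Control replicate 1 exceeded the next mouse by 0.82, while the other 9 mice spanned 6.79 to 7.06 and the genotypes overlapped. The difference was -0.15 ± 0.18 (SE, n = 5 per genotype, limma adjusted p = 1.00), a fold of 0.899 with a 95% interval of 0.681 to 1.19. Without control replicate 1 the difference turned to 0.05.

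Chrna3, the alpha subunit of the same receptor, had the lowest difference of the 9. Its log2 signals were 5.89, 5.98, 5.95, 5.76 and 5.88 in the Ts65Dn mice and 6.34, 6.09, 6.03, 5.96 and 5.99 in the controls, again in replicate order. The genotypes overlapped by 1 mouse, Ts65Dn replicate 2 at 5.98, the lowest control being 5.96. The difference was -0.19 ± 0.07 (SE), a fold of 0.877 (95% interval 0.788 to 0.977), with an unadjusted p of 0.0218 and an adjusted p of 1.00 in limma. It was -0.12 without control replicate 1, which was 0.26 above the next mouse in Chrna3 too. Chrna3 lay at the 30.1th percentile of row means, so its signal was low as well.

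Chrna5, the accessory subunit next to them, did not follow either gene. It ranged from 7.90 to 8.75 in Ts65Dn, with replicates 1, 3 and 5 at 8.48, 8.63 and 8.75 and replicates 2 and 4 at 7.90 and 8.28, and from 7.99 to 8.39 in controls. The Ts65Dn mice thus reached both above and below all controls. The difference was 0.19 ± 0.14 (SE), a fold of 1.14 (0.923 to 1.42, limma adjusted p = 1.00), and it was 0.32 without Ts65Dn replicate 2 and 0.11 without Ts65Dn replicate 5. The 3 nearest measured genes on each side of the cluster, Hykk, AY074887 and Psma4 on one side and Ube2q2, Fbxo22 and Nrg4 on the other, had differences from -0.02 to 0.06, and none passed the test.

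Chrna3 and Chrnb4 moved together over the 10 mice in Pearson's r but less in rank. This pair was singled out with its values known, so its correlation is a description with no test. Pearson's r was 0.81 and Spearman's rho was 0.39. With the genotype means removed r was 0.88. The relation rested on control replicate 1, which was highest in both genes: without that mouse r was 0.15, and 0.56 with the genotype means removed. Without the 2 mice farthest from the median of Chrna3, control replicate 1 and Ts65Dn replicate 4, it was -0.090. None of the 36 pairs of members passed a two-sided permutation test after adjustment over the pairs, and the pair with the smallest p was Chrna5 with Chrna7 (r 0.75, permutation test p = 0.013, adjusted p = 0.254, rho 0.78, permutation test p = 0.011, adjusted p = 0.374), with r 0.92 without the 2 mice farthest from the median of Chrna5.

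**Figure D2:**
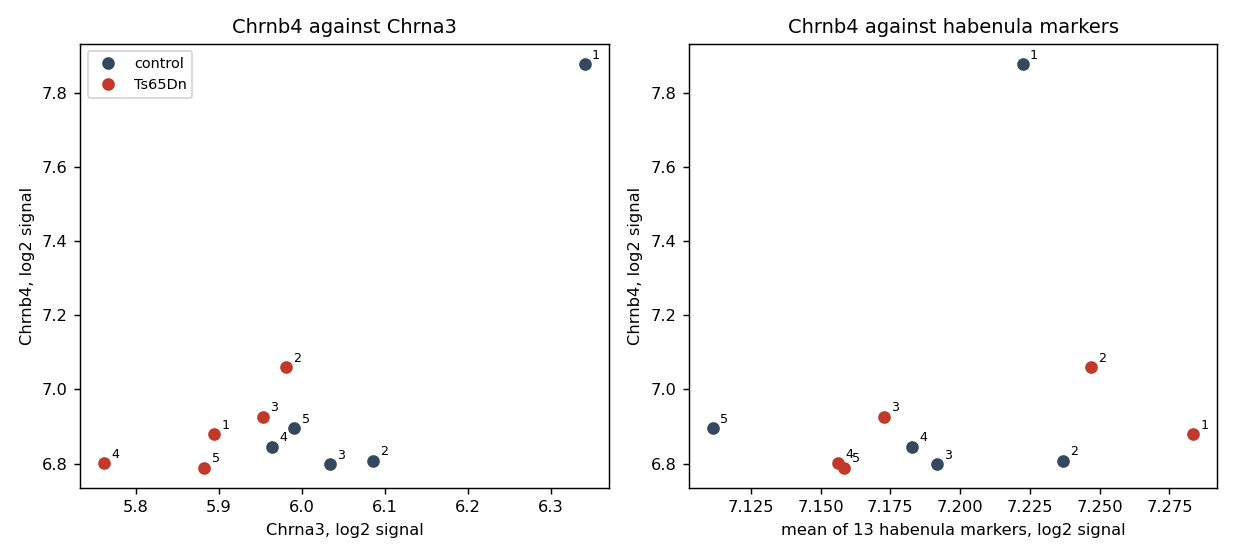
Log2 signal of Chrnb4 on the vertical axes, against the log2 signal of Chrna3 on the left and against the mean log2 signal of 13 habenula markers on the right, one point per mouse with its replicate number. Control replicate 1 lies alone at 7.88 for Chrnb4 and 6.34 for Chrna3, but within the range of the other mice for the habenula markers.

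Markers of the habenula, the small nucleus beside the hippocampus where Chrna3 and Chrnb4 are abundant, did not as a list follow the high mouse. The defining markers were Gpr151, an orphan receptor of habenular axons, Pou4f1, a transcription factor, Gng8, a G protein subunit, Tac2 and Nwd2. Gpr151, Pou4f1 and Gng8 stayed at 5.47 to 5.64, 5.27 to 5.53 and 5.68 to 6.01 in all 10 mice. These signals were near the 25th percentile of row means (5.70) or below it. In control replicate 1 they were 5.60, 5.44 and 5.85. Of the 13 markers measured, 2 were highest in control replicate 1. The mean of the 13 was 7.22 in that mouse, from 7.16 to 7.28 in Ts65Dn and from 7.11 to 7.24 in controls, and the genotypes differed by 0.01 (exact permutation test, p = 0.667).

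Across the 10 mice the mean of the habenula markers had r 0.26 with Chrna3 (permutation test p = 0.472, adjusted p over the 9 members = 0.746, rho 0.33, permutation test p = 0.348, adjusted p = 0.778) and r 0.25 with Chrnb4 (permutation test p = 0.497, adjusted p = 0.746, rho 0.31, permutation test p = 0.386, adjusted p = 0.778). Without the 2 mice farthest from the median of the list, Ts65Dn replicate 1 and control replicate 5, r was 0.65 and 0.42. Chrna3 and Chrnb4 were singled out with their values known, so these p-values are a description and no independent test. Tac2, a neuropeptide gene of the medial habenula that hippocampal interneurons use too, was 8.53, 8.12, 7.96, 8.33 and 7.83 in Ts65Dn and 8.17, 7.86, 8.05, 7.70 and 7.61 in controls, a difference of 0.28 ± 0.14 (SE). Nwd2 had a difference of 0.14 ± 0.05 (SE), and neither passed the test (limma adjusted p = 1.00 for both). Thalamus markers were highest in control replicate 5, with a list mean of 8.44, and control replicate 1 was at 7.96.

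Other genes shared the high value of control replicate 1. Ranked by how far that mouse exceeded the next of the 10, Chrnb4 was number 4 of 19938 genes and Chrna3 number 20. Ahead of Chrnb4 were Neurod4, a bHLH transcription factor (6.18 in control replicate 1, 4.84 to 4.99 in the other 9), Pde6g, a subunit of the photoreceptor phosphodiesterase (7.25 against 5.90 to 6.20), and Tph1, the tryptophan hydroxylase of the pineal gland and gut (6.68 against 5.67 to 5.79). Next came Rbp3, a retinoid carrier of the retina and pineal gland (6.24 against 5.17 to 5.48), and Gnb3, the G protein beta subunit of cones (7.34 against 6.49 to 6.69). The genes from number 7 to number 10 were Gm13213, Papss2, Btg2 and Gadd45b, of which Btg2 and Gadd45b are known as early response genes.

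A list of pineal and photoreceptor markers was written after these genes had been seen, so its values are a description. Of its 15 measured genes, 9 were highest in control replicate 1, where 13.7% of all genes were highest, and 6 exceeded the next mouse by over 0.2, as 56 of 19938 genes did, most of which are thus not on the list. The 6 were Neurod4, Pde6g, Tph1, Rbp3, Gnb3 and Sag, which encodes the arrestin of rods. Aanat, the enzyme that sets the rate of melatonin synthesis, was 5.85 in control replicate 1 and 5.61 to 5.91 in the other 9, and the photoreceptor genes Pdc, Gngt1 and Rcvrn also lay within the range of the others. The list mean was 6.12 in control replicate 1 and 5.61 to 5.78 in the other 9 mice. Its r with Chrnb4 was 0.94 with that mouse and 0.25 without, and with Chrna3 0.89 and 0.62, and the part of such cells in either gene was not tested. Of the 15 listed genes, 7 lay below the 25th percentile of row means. Chrna6, the dimmest member, had r -0.08 with the list mean, and 0.91 without control replicate 1. Without that mouse Chrna6 had r 0.93 with the mean of all rows below that percentile. The part of background signal in these values was not tested.

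**Figure D3:**
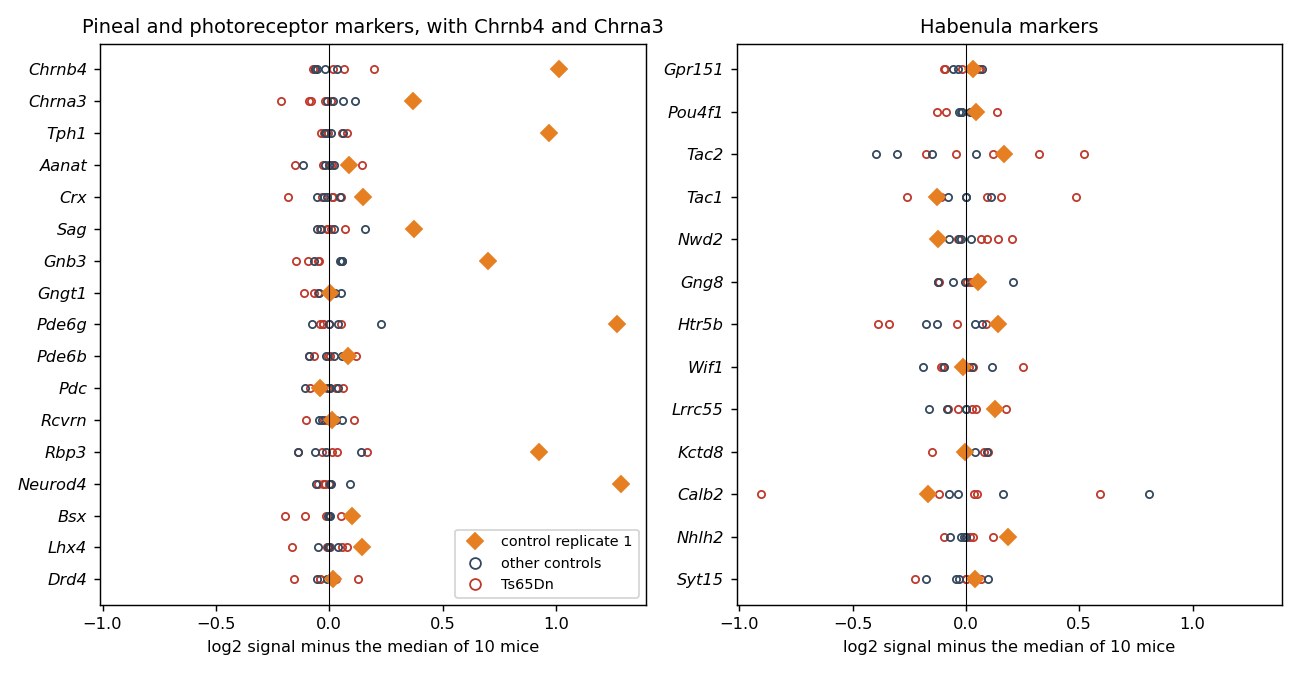
Log2 signal of each gene minus its median over the 10 mice, for Chrnb4, Chrna3 and 15 pineal and photoreceptor markers on the left and for 13 habenula markers on the right. Orange diamonds are control replicate 1, and open circles the other mice. On the left control replicate 1 lies far to the right for Chrnb4, Tph1, Gnb3, Pde6g, Rbp3 and Neurod4, while on the right it lies among the other mice or close to them.

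By Pearson's r over the 10 arrays, the 5 genes most like Chrnb4 among 19938 were Olfr293 (0.99), Tph1 (0.96), Neurod4 (0.96), Olfr117 (0.96) and Gnb3 (0.95). Without control replicate 1 the same values were 0.87, 0.10, -0.12, 0.49 and 0.38, so the likeness of Tph1 and Neurod4 rested on that mouse. Those most like Chrna3 were Olfr372 (0.95), Lrcol1 (0.94), Pole3 (0.93), Gnb3 (0.93) and Tubg2 (0.93). Without that mouse they were 0.94, 0.81, 0.86, 0.88 and 0.83. Olfr293 and Olfr117 lay below the 25th percentile of row means (5.70) in all mice, near background. The mean of all 5851 rows below that percentile had r 0.49 with Chrna3 and 0.50 with Chrnb4. Without control replicate 1 these were 0.25 and 0.34. These correlations are descriptions over arrays, those of single genes picked as the highest among all genes.

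Chrna1, the acetylcholine-binding subunit of the muscle receptor, was the member with the largest difference. It was 6.96, 6.47, 6.86, 6.45 and 6.63 in Ts65Dn replicates 1 to 5 and 6.43, 6.44, 6.32, 6.33 and 6.37 in the controls. Ts65Dn replicates 1, 3 and 5 were clearly above all controls, whereas replicates 2 and 4 were level with the highest ones, and the genotypes were separated by 0.01. The SD was 0.23 in Ts65Dn and 0.05 in controls. The difference was 0.30 ± 0.09 (SE), a fold of 1.23 (95% interval 1.07 to 1.41), with an unadjusted p of 0.00842 and an adjusted p of 0.917 in limma. The study also reported higher Chrna1 mRNA by quantitative RT-PCR, and named Ts65Dn among the models in which the gene was misregulated. Chrna1 lies at chr2:73563281-73580338, outside the segments in 3 copies. Ts65Dn replicates 2 and 4, the lowest of their genotype in Chrna1, had the highest choroid plexus means of the Ts65Dn mice (9.83 and 9.22). Chrna1 had r -0.36 with that mean, and -0.62 with the genotype means removed. The part of tissue composition in Chrna1 was not tested.

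The other subunits of the muscle receptor, which had low signals as Chrna1 did, showed no such difference. Chrnb1, Chrnd and Chrne, which with Chrna1 form the adult receptor, differed by 0.04 ± 0.05, 0.02 ± 0.05 and -0.09 ± 0.06 (SE), and Chrng, the fetal subunit, by -0.01 ± 0.07. Their signals were 5.48 to 5.70 for Chrnb1, 5.44 to 5.68 for Chrnd, 6.08 to 6.42 for Chrne and 6.03 to 6.37 for Chrng over all mice, and the genotypes overlapped in each. Chrnb1 and Chrnd lay at the 23.0th and 22.8th percentile of row means, and Chrne and Chrng at the 34.8th and 33.5th. A change near background may be understated in them. Chrna1 itself lay at the 38.5th percentile, not far above Chrne and Chrng, so the signal level does not set it apart from these. The muscle genes Acta1 (skeletal actin), Ckm (muscle creatine kinase) and Myog (myogenin) differed by -0.07 ± 0.06, 0.04 ± 0.06 and -0.02 ± 0.06. The mean of the 14 muscle markers differed by -0.01 (exact permutation test, p = 0.738), and 1 of them, the calcium release channel gene Ryr1, was lower at an unadjusted p of 0.0164 in limma (difference -0.19 ± 0.07, adjusted p = 1.00).

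Mouse by mouse, Chrna1 had r from -0.31 (Chrna3) to 0.54 (Chrna5) with the other members, a range that did not set it apart, since the highest r of Chrna4 with any member was 0.27. The nearest measured genes on chromosome 2, Scrn3, Gpr155 and Wipf1 on one side and Chn1, Atf2 and Gm10822 on the other, had differences from -0.07 to 0.07, and none passed the test. Atf2, a transcription factor gene, was above all controls in all Ts65Dn mice too, by a difference of 0.06 ± 0.03 (SE), while 0.884% of all rows had no overlap. The 5 genes most like Chrna1 over the 10 arrays were AF357341 (r 0.93), Clmp, a cell adhesion gene (0.93), Gm11559 (0.92), Barx2, a homeobox gene (0.90), and 1700067P10Rik (0.90). Clmp was 8.93, 8.64, 8.77, 8.63 and 8.72 in Ts65Dn and 8.59 to 8.65 in controls. AF357341, Gm11559 and 1700067P10Rik lay below the 25th percentile of row means (5.70) in all mice, near background. The genes most like Chrna1 were picked for that likeness, so the mice in which they are high follow from the choice.

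**Figure D4:**
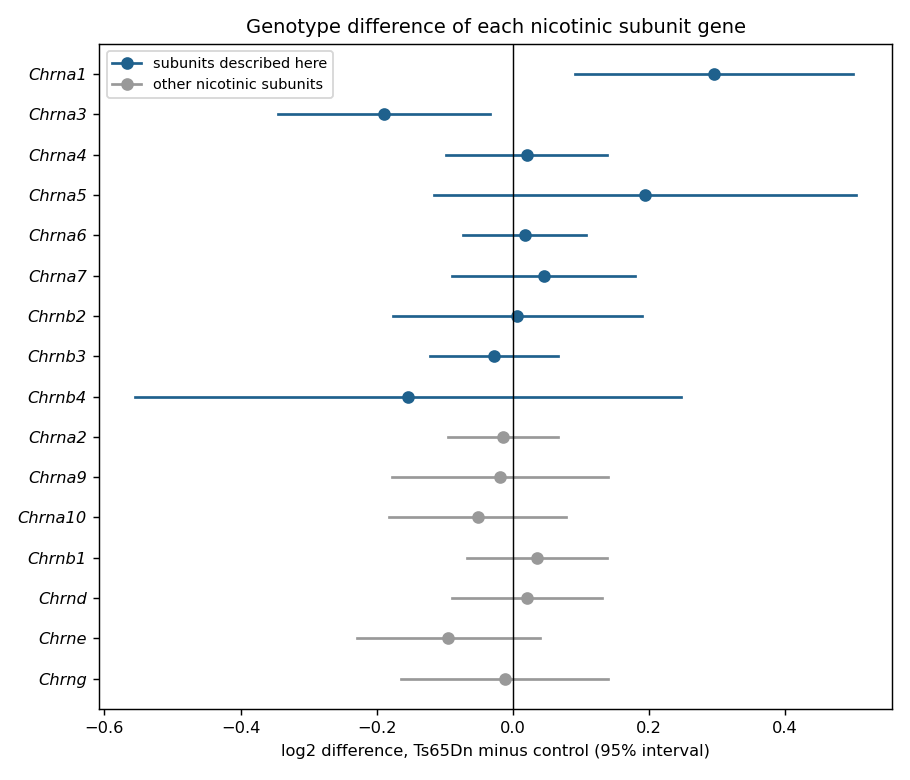
Difference in log2 signal, Ts65Dn minus control, with its 95% interval from limma for the 9 subunits described (blue) and the other 7 nicotinic subunits (grey), from 5 mice per genotype. Chrna1 at 0.30 and Chrna3 at -0.19 have intervals that leave out 0, before adjustment over all rows, and the interval of Chrnb4 is the widest.

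The subunits of the main hippocampal receptors differed little between genotypes. Chrna4 was 9.81, 9.92, 9.73, 9.74 and 9.91 in Ts65Dn and 9.85, 9.72, 9.83, 9.71 and 9.88 in controls, a difference of 0.02 ± 0.05 (SE) with a fold interval of 0.934 to 1.10. Its partner Chrnb2 was 10.25, 10.16, 10.08, 10.06 and 9.94 in Ts65Dn and 10.32, 10.13, 10.10, 10.08 and 9.83 in controls, a difference of 0.01 ± 0.08 with a fold interval of 0.885 to 1.14. Chrna7 was 9.61, 9.31, 9.62, 9.55 and 9.48 in Ts65Dn and 9.42, 9.39, 9.56, 9.52 and 9.45 in controls, a difference of 0.05 ± 0.06 with a fold interval of 0.940 to 1.13. The genotypes overlapped in all 3 genes.

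The markers of the cells that carry these receptors are given beside them. Of 11 interneuron markers none passed the test in limma, the smallest p being those of Vip, a neuropeptide gene (0.25 ± 0.11 SE), and Reln, which encodes reelin (0.15 ± 0.08). Of 12 markers of hippocampal neurons none passed, and Wfs1, a CA1 gene, was 10.34 to 10.73 in Ts65Dn and 10.84 to 10.97 in controls (-0.35 ± 0.07, limma adjusted p = 0.0925) while Iyd differed by 0.16 ± 0.08. Of the tissues around the hippocampus, the thalamic genes Prkcd and Rora differed by -0.36 ± 0.22 and -0.14 ± 0.10, and the choroid plexus genes Folr1 and Kcnj13 by 0.26 ± 0.47 and 0.58 ± 1.22, with 0 of 10 thalamic and 0 of 9 choroid plexus markers past the test and 0 of either list at an unadjusted p under 0.05.

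Chrnb2 and Chrna7 each varied between mice with some of the marker lists, but not with the same ones. Chrnb2 had r 0.87 with the mean of 11 interneuron markers (permutation test p = 0.00084, adjusted over the 9 members p = 0.00756, rho 0.82, permutation test p = 0.00572, adjusted p = 0.0515) and r 0.85 with the mean of the habenula markers (permutation test p = 0.00188, adjusted p = 0.0169, rho 0.92, permutation test p = 0.00054, adjusted p = 0.00486). Without the 2 mice farthest from the median of each list r was 0.56 and 0.71. Both list means were highest in Ts65Dn replicate 1 (interneuron 9.94, habenula 7.28) and lowest in control replicate 5 (9.71 and 7.11). The habenula list also holds Tac2, which hippocampal interneurons use, so these are not 2 separate relations. Chrna7 had r 0.81 with the mean of 12 markers of hippocampal neurons (permutation test p = 0.00417, adjusted p = 0.0375, rho 0.76, permutation test p = 0.0143, adjusted p = 0.129) and r 0.50 without the 2 farthest mice. It moved the opposite way to the choroid plexus markers, with r -0.70 (permutation test p = 0.0261, adjusted p = 0.207, rho -0.73, permutation test p = 0.0207, adjusted p = 0.107) and r -0.50 without the 2 mice farthest from the median of that list. This was not particular to Chrna7, since Chrna6 had r -0.64 and Chrna5 r -0.57 with the choroid plexus mean, whereas Chrna4 had r 0.43. Ts65Dn replicate 2 was lowest in Chrna7 (9.31) and in the hippocampal mean (9.65) and highest in the choroid plexus mean (9.83), and the part of tissue composition in these relations was not tested. The permutations take the mice as exchangeable, whereas the order of Chrnb2 over the replicate numbers was the same in both genotypes, as it was for 1.6% of genes, and these p-values do not allow for that. Among the other relations, Chrna7 had r -0.01 and Chrna4 r -0.18 with the interneuron markers, and Chrna4 had r -0.16 with its partner Chrnb2. In total, 99 relations of a member with a list were computed, and none passed after adjustment over the 99 (smallest adjusted p = 0.0832 by permutation test).

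**Figure D5:**
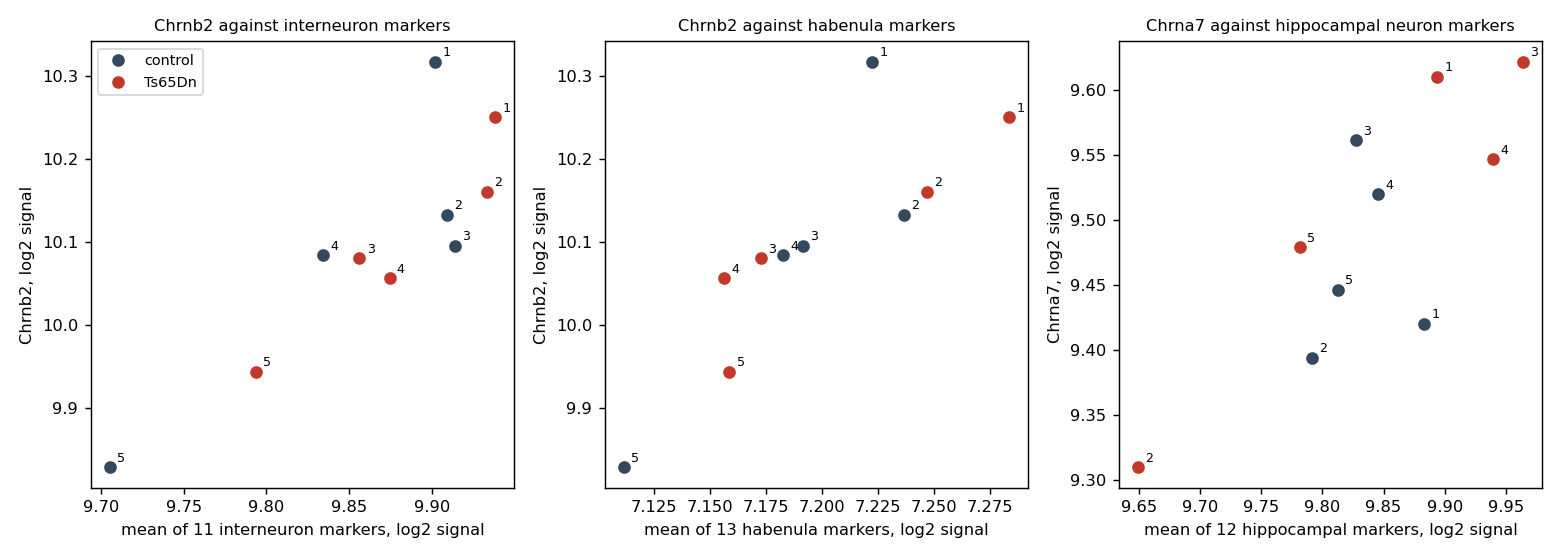
Log2 signal of Chrnb2 against the mean log2 signal of 11 interneuron markers (left) and of 13 habenula markers (middle), and of Chrna7 against the mean of 12 hippocampal neuron markers (right), one point per mouse with its replicate number. The points of both genotypes rise together, with Pearson's r of 0.87, 0.85 and 0.81, and the mouse lowest in Chrnb2 is control replicate 5 at 9.83.

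The subunits of dopamine neurons were dim. Chrna6 was 4.64 to 4.83 in Ts65Dn and 4.67 to 4.77 in controls, at the 5.8th percentile of row means, with a difference of 0.02 ± 0.04 (SE). Chrnb3, 3481 bases from it on chromosome 8, was 5.19 to 5.34 in Ts65Dn and 5.22 to 5.37 in controls, at the 17.4th percentile, with a difference of -0.03 ± 0.04. Both genes overlapped between genotypes and moved within 0.19 over all mice. Among 7 markers of monoamine neurons, Ddc, the decarboxylase of dopamine and serotonin synthesis, was 6.04 to 6.25 in Ts65Dn and 6.26 to 6.54 in controls, with no overlap (-0.26 ± 0.06 SE, limma adjusted p = 0.270), and Tph2 of serotonin neurons differed by 0.06 ± 0.04. Of all rows, 0.884% had no overlap of the genotypes, and Ddc was named for its small p.

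Among the other genes of cholinergic signalling, 0 of 35 passed the adjusted test in limma, and 0 had an unadjusted p under 0.05. Their differences ran from -0.19 to 0.11 with a median of -0.02, and 11 of 35 were above 0. The other neuronal and sensory subunits Chrna2, Chrna9 and Chrna10 differed by -0.01 ± 0.04, -0.02 ± 0.07 and -0.05 ± 0.06 (SE). Of the 15 genes of receptor assembly and modulation, Lypd1, a membrane-anchored modulator of the Ly6 family, was lowest. It was 10.19, 10.26, 10.25, 10.46 and 10.06 in Ts65Dn and 10.48, 10.68, 10.42, 10.45 and 10.12 in controls, a difference of -0.19 ± 0.10. Ly6g6e, of the same family, differed by -0.13 ± 0.08, and Ric3, the chaperone of Chrna7, by 0.11 ± 0.07.

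The 5 muscarinic receptor genes Chrm1 to Chrm5, whose products act through G proteins, had differences from -0.06 to -0.01, the smallest p being those of Chrm4 (-0.06 ± 0.10 SE) and Chrm5 (-0.06 ± 0.13). Of the 8 genes that make, carry and break down acetylcholine, Ache, the acetylcholinesterase, differed by 0.08 ± 0.05 (SE) and Prima1, its membrane anchor, by -0.11 ± 0.07. Chat, the synthesising enzyme of cholinergic neurons, was dim in all mice at 5.37 to 5.57, and its cell bodies lie outside the hippocampus. The genotypes overlapped in each of the 35 genes.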

How the data were processed

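The authors deposited log2 signals, 1 per probe set and array, after background correction, quantile normalization and probe summary by RMA. Their processing notes list RMA, limma and mm10 with no version, and those steps were not repeated. Of 35556 rows, the 23410 with a gene symbol were compared between genotypes by limma (version 3.58.1, R version 4.3.3, lmFit and eBayes, no covariate), and p-values were adjusted over all of them (Benjamini-Hochberg, threshold 0.05, two-sided). For members and lists a gene was its row of highest mean. The number of arrays, 5 per genotype, limits the precision, and pairs of mice were not assumed.

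Correlations over the 10 mice were tested with 100000 random permutations, and list means exactly over 252 allocations (smallest p 0.00794). The members and lists were chosen with earlier results of these data known, so the p-values of correlations and list means are a description and no independent test. Named were all members, the other nicotinic subunits, the 2 genes of smallest p of each list, defining habenula and muscle markers, the nearest 3 genes on each side and the 5 most alike. A list of pineal markers was added afterwards. The study ranked fold changes over pairs of arrays, and a rank method of that kind over 25 pairs (f under 0.025 or over 0.975) was written anew as an alternative. The other alternatives were normalizations, variance models, a filter on dim rows, other thresholds, a block and leaving out each mouse. The scripts were tested on simulated data. Promoter windows were copied from RefSeq on GRCm38.p6, and plots were drawn with matplotlib 3.10.9.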

Additional observations from a re-analysis of the deposited data

Results flagged for a closer look

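Within the 5 controls, replicate 1 lay far from the other mice in Chrnb4, at a log2 signal of 7.88, its gap to the nearest control being 0.910 of the range of the group. A gap above 0.71 of the range marks a value as far from the rest among 5, which chance gives in about 1 of 20 groups. In all, 42 groups were examined and 2 marks found, a count near that share. The count does not weigh how far a gap lies beyond the limit, and both marks are the same mouse. It therefore does not decide whether the Chrnb4 value arose by chance. The other mark was the same mouse in the mean of the pineal and photoreceptor markers, at 6.12 with a gap of 0.819 of the range. That list was written after its genes had been seen to be high in this mouse, so its mark follows from the choice of the list.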

How the results depend on the processing

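No member and no other cholinergic gene was called by limma under any of its alternatives, including the replicate number as a block (0 members called) and leaving out each mouse (0 to 0 calls in both counts). The rank method over pairs called 3 members (Chrna1 and Chrna5 higher, Chrna3 lower, 5.36% of all rows being called) and 1 other cholinergic gene, Lypd1, which was lower. The differences of Chrna1, Chrna3, Chrna5 and Chrna7 kept their sign under all 18 alternatives, that of Chrna1 ranging from 0.22 to 0.35 and that of Chrna3 from -0.22 to -0.12. Without control replicate 1, a setting chosen after seeing the data, no other member joined Chrna1 in having no overlap, beside 1.40% of rows. Leaving out a mouse cannot make separated genotypes overlap, so this setting is no check of Chrna1. The r of Chrna3 with Chrnb4 was 0.155 to 0.882 when 1 mouse was left out, lowest without control replicate 1, and -0.090 without the 2 mice farthest from the median. The r with the habenula markers was 0.145 to 0.504 for Chrna3 and 0.206 to 0.379 for Chrnb4 on leaving out 1 mouse. The genotype difference of the habenula mean turned to -0.038 as a median over genes, was 0.0415 over the markers above the median signal and 0.0678 over the defining markers (exact permutation test p = 0.0635), against 0.0146 over all, and was -0.0054 to 0.0265 on leaving out 1 mouse, turning to -0.0054 without Ts65Dn replicate 1 and -0.0048 without control replicate 5. That of the muscle mean was -0.0659 over the markers above the median signal, -0.0265 as a median over genes and -0.0057 after cyclic loess, against -0.0130 over all, and -0.0331 to 0.0138, above 0 without Ts65Dn replicate 4 (0.0138) and without control replicate 1 (0.000135).

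Replicate numbers recur in both genotypes, and same-numbered mice deviated together, though unevenly (correlations 0.507, 0.269, 0.325, 0.0313 and 0.459 for numbers 1 to 5). Of the 10 arrays, 7 correlated best with their own number. What the number stands for is not in the labels, so the mice were not taken as pairs. The permutation p-values over the 10 mice do not allow for this shared part. With the number as a block, Chrna1 had an adjusted p of 0.592 and Chrna3 of 0.713 in limma. Signal close to background limits Chrna6 and Chrnb3, and among the other nicotinic subunits Chrna10, Chrnb1 and Chrnd. Chrna3 and Chrna1, at the 30.1th and 38.5th percentile of row means, were low too and are not free of this limit.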
